A study of Oncorhynchus mykiss with 8 samples.

Results

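Liver transcript ratios of large against small rainbow trout (Oncorhynchus mykiss) were measured on 4 of the 8 two-colour arrays of the study, those titled as liver; the other 4 held muscle. All fish were of the Lyndon strain, had neomale parentage and were fed ad libitum at a research station. A neomale is a genetic female turned into a functional male, used in trout farming to produce all-female offspring. Liver of large fish was set against liver of small fish on every array, and size was the only label in which the fish groups differed. The labels used here give no age, body weight, sex or definition of large and small. Every pool held mRNA of 5 fish, and the titles number the pools 1 and 2, so that pool pair 1 and pool pair 2 were each put on 2 arrays with the dyes exchanged. On one array of a pair the large fish carried Alexa Fluor 555 and the small fish Alexa Fluor 647, and on the other the dyes were the other way round. Of 43603 probes, 36053 had a value on all 4 liver arrays, and 7550 lacked at least 1. The platform annotation gave a gene name to 117 probes, of which 98, for 75 genes, were complete in liver. These 98 carry the description below, beside 90 probes with only a locus placeholder and a large majority with no name at all.

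Growth of a fish is steered largely through the liver. Growth hormone acts on liver receptors, the liver answers with insulin-like growth factors, and binding proteins and thyroid hormone receptors tune that signal. The liver also makes glucose from amino acids, desaturates fatty acids, secretes albumin, transferrin and clotting inhibitors into the plasma, and breaks down foreign compounds. Chaperones accompany this secretory work, and oestrogen acting on the liver drives the making of egg yolk protein in females. The arrays give ratios between both pools and no level of any gene in a single pool, so the labelled tissue could not be checked against its marker levels. Likewise, a ratio does not tell apart fewer cells of a type from less RNA per cell.

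The deposited values were log2 ratios, and no source used here states which channel was the numerator or whether the exchanged dyes had already been corrected. Both readings are therefore given for the genes with the largest means. An array is called the 555 array or the 647 array of its pair after the dye of the large fish. In the turned reading the 647 array had its sign turned before both arrays of a pair were averaged. In the other, the values were averaged as deposited. If the values had not been corrected, the turned mean keeps the size difference and cancels an effect of the dye on a probe. If they had been, the turned mean cancels the size difference and keeps the effect of the dye. A value that follows the dye exchange therefore need not follow size, and which case holds was not tested. Below, positive means positive on the deposited scale of an array whose title puts large before small, and which size had more transcript is left unsaid. The 4 deposited values of a probe are always listed in the order 555 array and 647 array of pair 1, then 555 array and 647 array of pair 2. A probe with 1 sign once turned thus has one sign in the first and the third place and the other in the second and the fourth.

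Across the 36053 probes the 2 arrays of pair 1 opposed each other, with a correlation of -0.23. Both 555 arrays resembled each other across the pool pairs, with 0.35, and the 647 array of pair 1 opposed the 555 array of pair 2, with -0.26. The 647 array of pair 2 stood apart. Its correlations with the other 3 were 0.04, 0.05 and -0.03, in the order above, and its ratios had the widest spread, with an SD of 0.92 against 0.63, 0.74 and 0.55. Ratios beyond 1 in size made up 13.6% of its values, against 8.19%, 9.19% and 5.88%. These correlations run across probes, which share arrays and labelling and are not replicates. The blank DarkCorner spots, which carry no probe, also had values, namely 0.76, -1.26, 0.71 and -0.12, a turned mean of 0.71. These blank spots had 1 sign once turned, like many genes below. The negative control spot (-)3xSLv1 had no value on the 555 array of pair 1. Its other values, -1.66, 0.92 and -2.81, also changed sign with the dye. Over the 46 control spots complete in liver the median turned mean was 0.02. The part of such signals in the gene values was not tested.

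**Figure D1:**
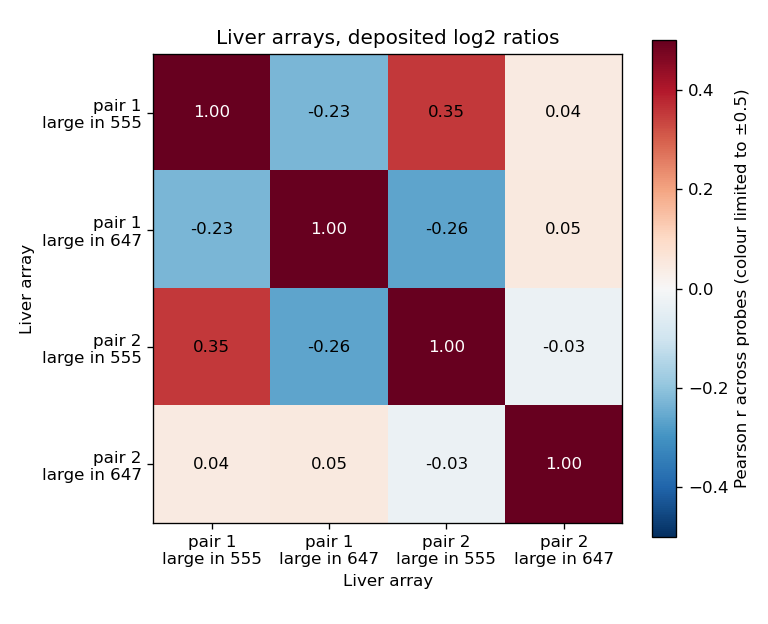
Pearson correlation of the deposited log2 ratios between each pair of the 4 liver arrays over 36053 probes, with colour and printed value giving the correlation. The 647 array of pair 2 has correlations between -0.03 and 0.05 with the others, where the remaining combinations lie at -0.26, -0.23 and 0.35.

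No liver probe passed the test. The fit, limma with an intercept over the 2 pool pairs, called 0 of 36053 probes (0%) at an adjusted p of 0.05 in the turned reading and 0 (0%) as deposited. The lowest adjusted p-values from limma were 0.600 and 0.840. An unadjusted p under 0.05 was reached by 2646 probes (7.34%) once turned, 1072 of them positive (2.97%) and 1574 negative (4.37%), and by 1531 (4.25%) as deposited. When each array was first centred on its median, 641 of 2662 such probes were positive and 2021 negative. With 2 pool pairs the fit has 1 residual degree of freedom, and an exact two-sided sign-flip test could not go below p = 0.5, so the absence of calls does not show that the livers were alike. Taking pair 2 from its 555 array alone raised the unadjusted count to 6629 probes (18.4%), still with 0 past the adjusted threshold. Pair 2 then has no exchanged array, so any effect of the dye on a probe stays in its value, corrected or not. The same holds for every value given below without the array that stood apart.

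The named genes are therefore described by their values. Of the 98 named probes, 27 (27.6%) had 1 sign on all 4 turned arrays, 15 positive and 12 negative, against 26.2% of all probes (17.7% positive and 8.51% negative). An unadjusted p under 0.05 in limma was reached by 9 (9.18%) once turned, against 7.34% of all probes. As deposited 7 (7.14%) reached it, against 4.25% of all probes. The named probes leaned to the negative side, with 42 positive and 56 negative turned means where 54.7% of all probes were positive. As deposited 40 were positive, where 55.5% of all probes were. With 1 turned sign and a mean beyond 0.5, 7 named probes were negative and 3 positive, against 4.19% and 3.14% of all probes. The negative ones belonged to fkh, hsp90b, cyp1a, pck2 (2 probes), esr1 and ahr2b, and the positive ones to trf, spp2 and pax7.

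**Figure D2:**
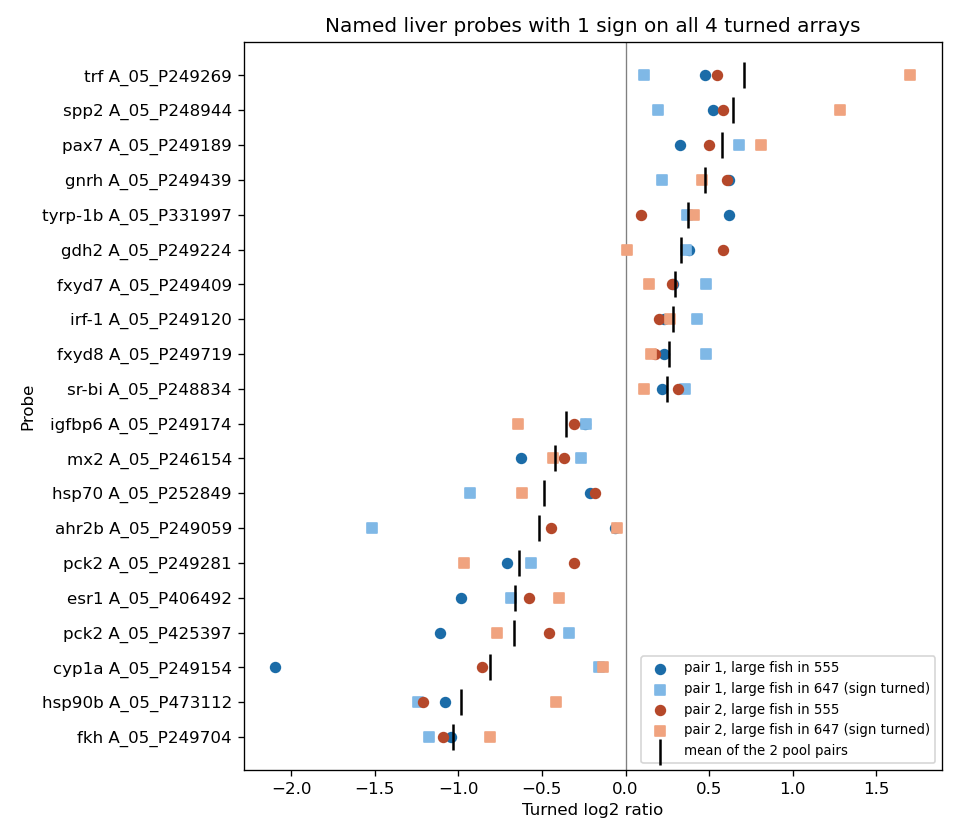
Turned log2 ratio of the 10 named probes per side with the largest turned mean among those with 1 sign on all 4 arrays, with 1 point per array and the mean over both pool pairs as a bar mark. The means run from -1.03 for fkh to 0.71 for one probe of trf, and the widest scatter belongs to the probes of cyp1a, ahr2b, trf and spp2.

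Among transcription factors, fkh, whose symbol stands for the forkhead family, deviated most. Its deposited values were -1.05, 1.18, -1.09 and 0.81. All 4 arrays were near or above 0.8 in size and changed sign with the dye, on the array that stood apart as well. Once turned it averaged -1.03 ± 0.11 (SD over the 2 pool pairs, as in all means below), or 2.04-fold, with a limma adjusted p of 0.600. As deposited the mean was -0.04 ± 0.15. Among the myogenic factors, which are known for muscle and not for liver, pax7, a factor of muscle stem cells, had 0.33, -0.68, 0.50 and -0.81. Its turned mean was 0.58 ± 0.11, a 1.49-fold ratio (adjusted p from limma 0.600), and its sign was the opposite as deposited, -0.17 ± 0.01. Those of mrf4, myod1, myod1c and myf5 lay between -0.27 and 0.24. Whether the liver pools held these transcripts above background cannot be read from ratios.

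Heat shock chaperones, which fold and hold other proteins, had negative turned means in all 4 of their probes. The median of the list was -0.45, against 0.04 over all probes. For hsp90b, the probe A_05_P473112 gave -1.08, 1.24, -1.21 and 0.41, so that its 2 arrays of pair 1 and the 555 array of pair 2 all exceeded 1 in size. Its turned mean was -0.99 ± 0.25, a 1.98-fold ratio, against -0.16 ± 0.34 as deposited. A second probe, A_05_P407712, had a turned mean of -0.42 ± 0.27. The third, A_05_P249734, gave -1.17 in pair 1 and 0.40 in pair 2, opposite signs in the pool pairs, with a value of -1.15 on the array that stood apart. The single probe of hsp70 had -0.21, 0.93, -0.18 and 0.62. Its values on the 647 arrays were larger in both pairs, and the turned mean was -0.49 ± 0.12, a 1.40-fold ratio. As deposited the same probe averaged 0.29 ± 0.10, so its sign rests on the reading. The limma adjusted p of hsp70 and of the first hsp90b probe was 0.600 once turned.

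Of 6 probes for glucose and amino acid enzymes, 5 had negative turned means, where 54.7% of all probes were positive. Both probes of pck2, phosphoenolpyruvate carboxykinase, an enzyme on the path from amino acids and lactate to glucose, had like values over the arrays. A_05_P425397 had -1.11, 0.34, -0.46 and 0.77, and A_05_P249281 had -0.71, 0.57, -0.31 and 0.97. The turned means were -0.67 ± 0.08 and -0.64, the latter with -0.64 in each pool pair, and their ratios 1.59-fold and 1.56-fold. As deposited they averaged -0.11 ± 0.38 and 0.13 ± 0.28. The glycolytic enzyme gapdh gave -0.84 in pair 1 and 0.17 in pair 2. Glutamate dehydrogenase, which links amino acids to the citric acid cycle, had probes that disagreed. For gdh2, the probe A_05_P249224 gave 0.38, -0.36, 0.58 and -0.01, a turned mean of 0.33 ± 0.05, and 0.15 ± 0.20 as deposited, while A_05_P246334 gave -0.73 in pair 1 and 0.41 in pair 2. The probe of gdh3.1 had a turned mean of -0.30 ± 0.32.

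The aryl hydrocarbon receptor senses dioxins and related planar compounds and switches on cyp1a, an enzyme that oxidises them. Of its 2 probes, A_05_P249154 had -2.10, 0.16, -0.86 and 0.13, and A_05_P248994 had -2.20, 0.76, -1.05 and -0.58. On both, the 555 arrays were far below 0 and the exchanged arrays were closer to 0. The turned means were -0.81 ± 0.45 and -0.86 ± 0.88, and those as deposited -0.67 ± 0.43 and -0.77 ± 0.07. The mean of cyp1a was thus negative in either reading, with a ratio of 1.75-fold and 1.82-fold once turned and 1.59-fold and 1.70-fold as deposited. The limma adjusted p was 0.600 once turned and 0.840 as deposited for both probes. The receptor genes ran in both directions. For ahr2b the values were -0.06, 1.52, -0.45 and 0.05, so that 1 array carried its turned mean of -0.52 ± 0.38, which was 0.26 ± 0.66 as deposited. The turned means of ahr2g, ahr2a, ahr2d and ahr1 were -0.44, 0.05, 0.31 and 0.36, the last with 0.93 in pair 1 and -0.21 in pair 2.

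Few genes of hormonal growth control could be read in liver. The growth hormone receptor ghr1 had a value on 1 of the 4 arrays, -0.32, and no probe was named igf1, igfbp1 or vtg. Myostatin, an inhibitor of muscle growth listed as gdf-8, had 1.79, -0.71 and -0.58 and no value on the 555 array of pair 2. The IGF-binding protein igfbp6 was complete, with -0.24, 0.24, -0.31 and 0.64. Its deposited values followed the dye exchange in both pairs, and the turned mean was -0.36 ± 0.17, a 1.28-fold ratio (limma adjusted p 0.600), against 0.08 ± 0.12 as deposited. The thyroid hormone receptor thrb had -0.51, 0.22, -0.13 and 0.26, a turned mean of -0.28 ± 0.12 and -0.04 ± 0.14 as deposited, whereas the receptor tr-alpha had 0.23 ± 0.01.

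The oestrogen receptor esr1, through which the liver answers to oestrogen, was negative once turned in both pool pairs on both of its probes. A_05_P406492 had -0.99, 0.69, -0.58 and 0.40, a turned mean of -0.66 ± 0.25 and a 1.58-fold ratio (limma adjusted p 0.600), against -0.12 ± 0.04 as deposited. A_05_P249529 had a turned mean of -0.39 ± 0.37 and -0.33 ± 0.09 as deposited. Neither of the other measured genes of the reproductive axis is known for a role in liver. The hormone gene gnrh, whose product releases gonadotropins from the pituitary, had 0.62, -0.22, 0.61 and -0.46, with little scatter between the pairs a turned mean of 0.48 ± 0.08 and 0.14 ± 0.09 as deposited. The follicle-stimulating hormone receptor fshr stayed near 0, with a turned mean of -0.08 ± 0.03.

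Plasma protein genes, the products by which liver is best known, had unlike values in the 2 pool pairs. Antithrombin, an inhibitor of clotting, had -1.85, 1.07, -0.88 and -0.87. Pair 1 followed the dye exchange and gave -1.46, while both arrays of pair 2 were negative and gave -0.01. Without the array that stood apart its turned mean of -0.73 ± 1.02 was -1.17. Albumin, alb1, gave -0.69 in pair 1 and 0.67 in pair 2, a turned mean of -0.01 ± 0.96. The 3 probes of trf, transferrin, the iron carrier of plasma, disagreed. A_05_P393692 had -1.61, 1.86, -1.02 and -0.55 and a turned mean of -0.99 ± 1.06, A_05_P249269 had 0.48, -0.11, 0.55 and -1.70 and 0.71 ± 0.59, and A_05_P474597 had 0.04 ± 0.07. Without the array that stood apart the first gave -1.38 and the second 0.42, which is lower by more than 1.5 times. The secreted phosphoprotein gene spp2 had 0.52, -0.19, 0.58 and -1.28 and a turned mean of 0.64 ± 0.41, or 0.47 without that array. As deposited spp2 averaged -0.09 ± 0.36 and trf A_05_P249269 -0.20 ± 0.54, so that these means had the opposite sign in that reading. The probe trf A_05_P474597 stayed positive, with 0.25 ± 0.13 as deposited. The limma adjusted p-values of these trf and spp2 probes lay between 0.600 and 0.923.

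The split between the pool pairs extended to other functions. In pair 1, 33 of the 98 named probes had a turned value under -0.5, against 12.8% of all probes, and in pair 2, 7 did, against 11.4%. Those far below 0 in pair 1 and near 0 in pair 2 included b2m, the light chain of class I molecules, with -1.16 and -0.07, rtn4, a membrane protein of the endoplasmic reticulum, with -1.18 and -0.25, and sorf with -1.56 and -0.18. For hn1 the pair values were -0.95 and -0.17, and for st2 -1.18 and -0.38. Superoxide dismutase, sod1, which detoxifies superoxide, had 2 probes with -0.80 and -0.55 in pair 1 and -0.13 and -0.01 in pair 2. Over all probes, 6998 lay beyond 0.5 on either side in pair 1 and 6664 in pair 2. The 2024 probes beyond it in both were 28.9% of the first and 30.4% of the second, and 1541 of them had the same sign. Of the named probes 37 lay beyond it in pair 1, 13 in pair 2 and 7 in both. The correlation of the turned values of pair 1 and pair 2 over all probes was 0.21, and 0.08 as deposited. The array that stood apart was read against the others. Where the other 3 arrays of a named probe averaged under -0.3 once turned, which was so for 36 probes, the 647 array of pair 2 was negative in 25. Where they averaged over 0.2, which was so for 25 probes, it was negative in 16. It was negative in 59 of all 98 named probes and in 18984 of the 36053 probes.

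**Figure D3:**
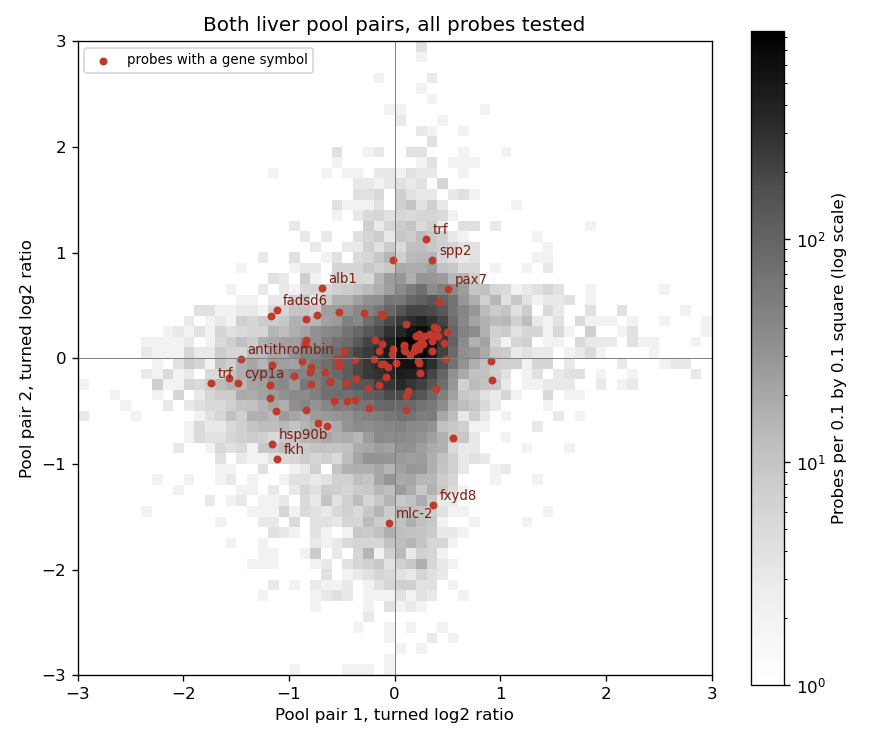
Turned log2 ratio of each probe in pool pair 2 (vertical axis) against pool pair 1 (horizontal axis), with all 36053 probes as shading and the 98 named probes as points; values beyond 3 are drawn at the edge. Named probes spread far along the negative arm of pair 1, where antithrombin, sorf and one probe of trf lie with pair 2 values between -0.23 and -0.01.

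A group of named probes had negative means in both readings, which are 2 averages of the same 4 values. Both means lay under -0.3 in 15 of the 98 named probes, against 4.08% of all probes, and both lay over 0.3 in 1, against 1.7%. The 15 belonged to antithrombin, b2m, cyp1a (2 probes), esr1, fadsd5, fadsd6, hba, hsp90b (2 probes), rtn4, sod1, sorf, st2 and trf. In each of these the 555 arrays averaged further from 0 than the exchanged arrays, as 2 negative means require. The turned averages of the 647 arrays alone ran from -0.655 for trf to 0.60 for fadsd6. For cyp1a they were -0.09 and -0.15, against -1.63 and -1.48 on the 555 arrays. Negative means in both readings thus rest mainly on 1 dye orientation. None passed the test in either reading, and the positive one was a probe of psmb9b whose values rested on a single array.

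Lipid genes were part of that group. The desaturases fadsd5 and fadsd6 put double bonds into long-chain fatty acids. For fadsd6 the deposited values were -1.48, 0.75, -1.05 and -1.95. The fourth, from the array that stood apart, was the lowest, and the turned values were -1.12 in pair 1 and 0.45 in pair 2. The mean was -0.33 ± 1.11 once turned, -1.08 without that array and -0.93 ± 0.80 as deposited, a 1.91-fold ratio with an adjusted p from limma of 0.840. For fadsd5 the values were -1.18, 0.57, -0.62 and -0.58, a turned mean of -0.45 ± 0.60 and -0.45 ± 0.21 as deposited. Without the array that stood apart the turned mean of fadsd5 was -0.75. The lipid-sensing nuclear receptors pparb2a and pparg had turned means of -0.21 and 0.15. The scavenger receptor sr-bi, which takes up cholesterol from high-density lipoprotein, had 0.22, -0.35, 0.32 and -0.11, a turned mean of 0.25 ± 0.05 and 0.02 ± 0.12 as deposited.

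Red cell and muscle markers were read beside these, since liver holds blood and dissection can carry other tissue. The 3 probes of hba, the alpha chain of haemoglobin, did not share a direction. A_05_P249379 had -1.45, 0.25, -0.61 and -0.88, A_05_P491417 had -0.68, -0.10, -0.27 and -1.13, and A_05_P332705 had 0.24, -0.16, 0.30 and -0.13. The first pair of probes was negative as deposited, with -0.67 ± 0.10 and -0.54 ± 0.22, while the third averaged 0.06 ± 0.04. The turned means of hba were -0.36, 0.07 and 0.21, and without the array that stood apart -0.73, -0.28 and 0.25. For mlc-2, a light chain of myosin, 1 of 4 probes, A_05_P249999, had 0.40, 0.50, 0.26 and 3.39, the last on the array that stood apart. It averaged -0.81 ± 1.07 once turned, 1.13 ± 0.97 as deposited and 0.10 without that array. Its other 3 probes had turned means between 0.09 and 0.22, and A_05_P488482 was the largest of them. Parvalbumin, prvb, another muscle protein, had 0.17, 1.57 and 1.14 and no value on the 647 array of pair 2. The part of blood or muscle in the other results was not tested.

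Interferon-responsive genes were small in size and mixed in sign. The antiviral gene mx2 had -0.63, 0.27, -0.37 and 0.44, following the dye on every array, with a turned mean of -0.42 ± 0.03, a 1.34-fold ratio (limma adjusted p 0.600), against -0.07 ± 0.15 as deposited. The 2 probes of mx1 had 0.11 ± 0.03 and -0.05 ± 0.68. The regulator irf-1 had 0.23, -0.43, 0.20 and -0.26 and a turned mean of 0.28 ± 0.07, which was -0.06 ± 0.05 as deposited, and the interferon genes ifna2 and ifng had 0.20 ± 0.06 and 0.09 ± 0.01. Of 8 class I antigen-processing probes, 4 were positive and 4 negative once turned, with a list median of -0.01. The largest was b2m, with -1.39, 0.92, -0.75 and -0.62 and a turned mean of -0.61 ± 0.77, or -0.96 without the array that stood apart and -0.46 ± 0.32 as deposited. Among the proteasome subunits, the probe A_05_P441057 of psmb9b had 2.14, 0.31, -0.07 and -0.02. Only its first array was far from 0, and its mean was 0.45 ± 0.67 once turned. The other 2 psmb9b probes and psmb8b lay between -0.27 and 0.17. Of the cytokine genes, tnf-alpha-1 had 0.14, -0.66, 0.00 and -0.56, a turned mean of 0.34 ± 0.09 and -0.27 ± 0.01 as deposited. Its turned mean was 0.20 without the array that stood apart and 0.069 from the 555 arrays alone. The interleukin 1 receptor-like gene il-1rl had -0.13 ± 0.32 once turned, or -0.017 without that array.

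Genes of the FXYD family, small proteins that tune the sodium pump, made up most of the ion transport list. In that list 6 of 9 probes were positive once turned and 2 had 1 sign, against 54.7% and 26.2% of all probes. The probe of fxyd7 had 0.28, -0.48, 0.28 and -0.14 and a turned mean of 0.29 ± 0.12, against -0.02 ± 0.12 as deposited. The fxyd8 probe A_05_P249719 had 0.26 ± 0.14, and -0.06 ± 0.10 as deposited, but A_05_P466347 of the same gene had 0.24, -0.49, -0.30 and 2.49 and a turned mean of -0.51 ± 1.24. Without the array that stood apart the latter was 0.03. The fxyd12a probe A_05_P249519 had 0.58, -0.24, 0.48 and 0.05, with a turned mean of 0.31 ± 0.14 and 0.22 ± 0.07 as deposited. The other fxyd12a probe, A_05_P455647, had a turned mean of 0.01 ± 0.05. Pigment enzymes are not known for a liver role, and both measured were positive once turned. The probe of tyrp-1b had 0.62, -0.37, 0.09 and -0.41, a turned mean of 0.37 ± 0.17 and -0.01 ± 0.20 as deposited. For tyrp-1 the values -0.94, -0.92, 0.09 and -1.76 gave 0.46 ± 0.66 once turned and -0.88 ± 0.07 as deposited, so its sign rests on the reading, and 0.039 without the array that stood apart.

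If the deposited values had already been corrected for the dye exchange, another set of genes comes forward. On all 4 arrays 1 sign was seen as deposited in 8 of 98 named probes (8.16%), 5 positive and 3 negative, against 9.61% of all probes. Besides mlc-2, the positive ones were myf5 with 0.36 ± 0.31, trf A_05_P474597 with 0.25 ± 0.13, irf-2 with 0.21 ± 0.03 and fshr with 0.10 ± 0.01. Besides hba, the negative ones were trp-i A_05_P248904 and fxyd9b, the latter with -0.24 ± 0.04. The values of trp-i A_05_P248904 were -2.29, -1.89, -0.16 and -0.14, a mean of -1.12 ± 1.37. Both arrays of pair 1 were thus far below 0 and both of pair 2 near it. The other trp-i probe, A_05_P318402, had 0.08, 1.29, -0.89 and -0.45 and averaged 0.01 ± 0.96. The myf5 mean, from 1.07, 0.09, 0.14 and 0.15, rested on 1 array. The limma adjusted p of the 8 probes with 1 sign was 0.840 to 0.870 in this reading.

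Across functions, the medians of the gene lists ranged from -0.45 for the chaperones and -0.44 for the aryl hydrocarbon receptor and cyp1a to 0.41 for the pair of pigment genes, against 0.04 for all probes. As deposited they ran from -0.54 for globin to 0.12 for class I antigen processing. Globin and the pigment genes had medians of opposite sign in the readings, 0.07 and 0.41 once turned and -0.54 and -0.45 as deposited. Plasma proteins had a median of 0.01 once turned and -0.24 as deposited. Several lists hold 2 to 4 probes. Different probes of 1 gene gave little agreement. Of 30 probe pairs from 17 named genes, 15 had the same sign once turned and 16 as deposited. With locus placeholders included, 32 of 55 pairs did in each reading. The probes of pck2 and esr1 ran alike and those of trf, gdh2, hba and fxyd8 did not. Of 90 placeholder probes 26 had 1 turned sign, where 26.2% of all probes did, and their median was -0.11.

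**Figure D4:**
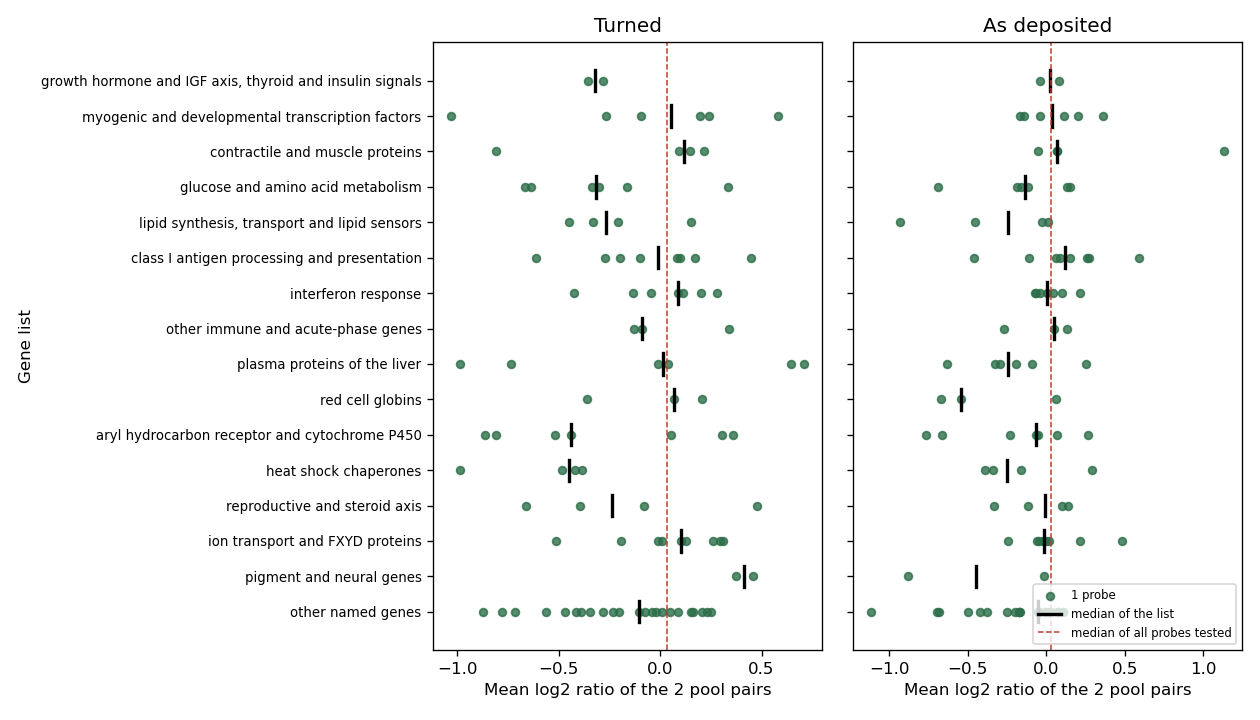
Liver mean log2 ratio of every named probe, grouped by gene list, once turned and as deposited, with the list median marked. The chaperone probes all lie under -0.3 once turned, whereas plasma proteins reach from -0.99 to 0.71.

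Muscle of the same design gave a narrower picture. The SD of the turned mean was 0.18 across 41652 probes in muscle and 0.40 across 36053 in liver. The difference of the turned pair values, divided by 2, had an SD of 0.13 in muscle and 0.32 in liver. The liver pool pairs thus also differed more from each other. Over 34757 probes complete in both tissues the liver and muscle turned means correlated with 0.27, and as deposited with 0.07. The difference of liver and muscle passed an adjusted p of 0.05 in limma at 0 probes (0%), and reached an unadjusted p under 0.05 at 2677 (7.7%), or at 1475 (4.24%) as deposited. With the replicate number as a block 2139 probes (6.15%) did. The lowest adjusted p was 0.647. Once turned, the largest named differences with 1 sign in liver were spp2 at 1.11, trf A_05_P249269 at 1.02 and fkh at -0.95 on the log2 scale. Next came cyp1a A_05_P249154 at -0.89 and hsp90b A_05_P473112 at -0.87, each of these with a limma adjusted p of 0.647. As deposited, spp2 averaged -0.09 in liver and -0.05 in muscle, and fkh -0.04 and -0.03. That trf probe then had -0.20 in liver and -0.40 in muscle, the cyp1a probe -0.67 and -0.10, and the hsp90b probe -0.16 and 0.23. The probe of brd2, which lacked 1 turned sign in liver, had a larger turned difference of 1.88 (limma adjusted p 0.647). Its muscle values were -4.58, 0.18, -3.47 and 0.85, furthest from 0 on the 555 arrays. The turned mean of brd2 was -2.27 ± 0.16 in muscle and -0.39 ± 0.01 in liver. As deposited these were -1.76 ± 0.63 and 0.11 ± 0.47. For fkh the turned muscle mean was -0.08 ± 0.04, so the turned deviation described above was seen in liver, though the difference did not pass. For spp2 it was -0.46 ± 0.05. One turned sign on all 4 liver arrays and the other on all 4 muscle arrays was seen for mx2, irf-1, gnrh and tyrp-1b, where 1.01% of all probes did so. The turned muscle means were 0.09, -0.07, -0.13 and -0.12. The same sign on all 8 arrays was seen for fxyd7, gdh2, ifna2, igfbp6 and thrb, against 4.15% of all probes. In these genes the turned muscle means were 0.15, 0.31, 0.08, -0.20 and -0.26.

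**Figure D5:**
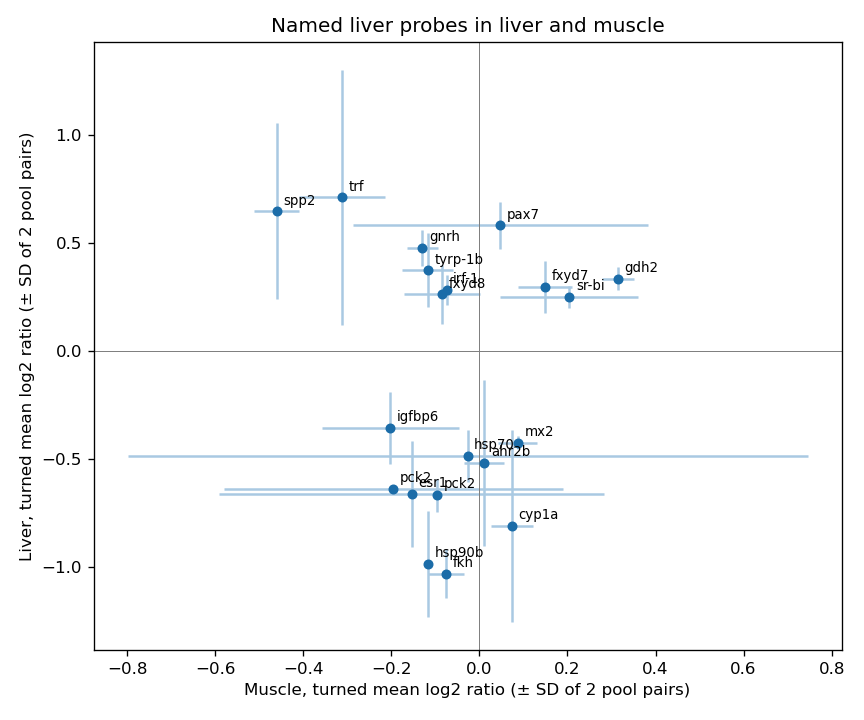
Turned mean log2 ratio in liver (vertical axis) against muscle (horizontal axis), with gene labels. Drawn are the 10 named probes per side with the largest liver turned mean among those with 1 sign on all 4 turned liver arrays. The probe of fkh, the cyp1a probe A_05_P249154 and the hsp90b probe A_05_P473112 lie under -0.8 in liver. Their muscle means lie between -0.12 and 0.07.

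The largest liver means belonged to probes with no gene name. Among probes with 1 turned sign, A_05_P258549 had 2.89, -1.49, 0.44 and -4.56, a turned mean of 2.34 ± 0.22, and its muscle values stayed within 0.42 of 0. A_05_P365912 had -2.23, 5.52, -1.46 and 1.82, a turned mean of -2.76 ± 1.58, and A_05_P326782 had -3.02, 3.07, -0.61 and 3.35, a turned mean of -2.51 ± 0.75. For A_05_P256534 the mean of 2.48 ± 3.34 came from a single value of 9.65. As deposited, A_05_P339712 averaged 2.15 ± 0.84 and A_05_P255954 2.14 ± 1.18, and A_05_P407947 and A_05_P270829 averaged -2.57 ± 1.02 and -2.10 ± 2.30. The limma adjusted p was 0.600 for the first 4 and 0.840 for these. No sequence or gene for them was used here.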

How the data were processed

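Ratios of large against small trout liver came from 4 two-colour arrays labelled directly from μMACS-purified mRNA, per the labels' protocols. The deposited table holds 1 log2 ratio per array and probe. Its unit was found from the values: back-transformed values lay on ratios of 3 decimals for 99.0 to 99.7% of moderate values (tolerance 0.05 thousandths), and after a sign change for 7.73 to 11.1%. Numerator, scanner, background correction, normalization and the reason for empty cells are not given in the sources used here, and no intensities were used, so dim spots were not filtered and depth has no counterpart beyond the number of arrays. Of 43663 rows 60 control spots were left out. No per-sample column stayed unused (0). No symbol or accession could be matched to the current annotation (assembly USDA_OmykA_1.1), so the platform's old symbols were kept without positions or sequences.

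The 2 arrays of a pool pair were averaged for every probe, turned or as deposited. That numbered pools are separate fish is an assumption, so p-values measure the spread between these pools only. limma 3.58.1 in R 4.3.3 fitted an intercept to the 2 pair values of 36053 probes (1 residual and 2.25 prior degrees of freedom; 2.09 as deposited), with Benjamini-Hochberg adjustment at 0.05, two-sided. Liver minus muscle used 4 pair values (2 residual degrees of freedom). The scripts were tested on simulated data. A pairing check of pool numbers across tissues gave correlations of pair deviations of 0.07 once turned and 0.04 as deposited. Such low values cannot decide whether equal numbers stand for the same fish, because array scatter also enters the deviations.

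Named genes were the 10 per side with 1 turned sign and the largest mean, the same with 5 per side as deposited, the 2 largest of each of 15 gene lists, 2 unnamed probes per side and reading, and igf1, igfbp1, ghr1, myostatin and vtg; others were chosen after their values were seen. Lists were matched by symbol, 2 patterns being corrected after the symbols were seen. Members and lists were chosen with earlier results of these data known. Alternatives were the sign reading, centring, scaling, spread shared with muscle, a random block, incomplete probes, 1 dye orientation, and leaving out pairs or the array that stood apart.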

Additional observations from a re-analysis of the deposited data

Results flagged for a closer look

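Of 88 sets of 4 array values looked at, 3 held 1 array far from the others by Dixon's criterion (critical value 0.829), where chance alone flags about 1 in 20. As deposited, myf5 had 1.07 on the 555 array of pair 1, with the others between 0.09 and 0.15. The mlc-2 probe A_05_P249999 had 3.39 on the 647 array of pair 2, with the others between 0.26 and 0.50. Once turned, the psmb9b probe A_05_P441057 had 2.14 on the 555 array of pair 1, with the others between -0.31 and 0.02.

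In 4 of 44 named probes set against muscle, every turned liver array had one sign and every turned muscle array the other. Of all 34757 probes complete in both tissues, 350 (1.01%) did so. All 4 had been chosen for 1 sign on the turned liver arrays, so their number cannot be set against that share. The liver minus muscle differences were -0.51 for mx2, 0.36 for irf-1, 0.61 for gnrh and 0.49 for tyrp-1b on the log2 scale. The limma test of each difference gave adjusted p-values of 0.647, 0.650, 0.647 and 0.647, so none passed.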

How the results depend on the processing

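The count of liver probes past an adjusted p was 0 in limma under every setting run with both pool pairs, and 6136 to 6651 with 1 pool pair left out, where the spread is that of muscle alone. The unadjusted count of 2646 was 1531 as deposited, 6521 with the spread shared with muscle, 6088 with pool pairs as random blocks, 5537 from the 555 arrays alone, 1132 from the exchanged ones, 6629 without the array that stood apart, and 11432 to 12702 with 1 pool pair left out. For liver minus muscle, leaving out 1 pair gave 0 to 3667 adjusted calls, with 3667 and 3367 when a liver pair was left out, and the replicate block gave 0. Of the 20 probes (10 genes positive, 9 negative) chosen by turned sign, 9 kept it as deposited; their 20 of 20 elsewhere follows from the choice.

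Signs of single probes turned as follows. As deposited: irf-2 0.21, spp2 -0.093, ahr2b 0.26, irf-1 -0.065, il-1rl 0.13, igfbp6 0.082, pax7 -0.17, trf A_05_P249269 -0.20, pck2 A_05_P249281 0.13, fxyd7 -0.016, tnf-alpha-1 -0.27, fxyd8 A_05_P249719 -0.058 and A_05_P466347 0.48, fshr 0.10, mlc-2 A_05_P249999 1.13, hsp70 0.29, tyrp-1b -0.015, tyrp-1 -0.88, hba A_05_P491417 -0.54, A_05_P258549 -0.68, A_05_P365912 0.91, A_05_P326782 0.70, A_05_P339712 2.15 and A_05_P255954 2.14. With the 555 arrays alone: irf-2 0.080, il-1rl 0.0039, fshr 0.024, mlc-2 0.33, tyrp-1 -0.43, hba A_05_P491417 -0.47, A_05_P339712 1.22 and A_05_P255954 1.96. With the 647 arrays alone: fxyd9b 0.23, fadsd5 0.0045, trp-i A_05_P248904 1.01, myf5 -0.12, hba A_05_P249379 0.31, fadsd6 0.60, psmb9b A_05_P441057 -0.14, trf A_05_P474597 -0.22, A_05_P407947 2.24 and A_05_P270829 1.66. Without the array that stood apart: mlc-2 0.10, fxyd8 A_05_P466347 0.032, hba A_05_P491417 -0.28 and A_05_P255954 0.47. Centring gave trf A_05_P474597 -0.030, and scaling gave it -0.022 and hba A_05_P491417 -0.049.

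With 1 pool pair left out the range was -0.19 to 0.17 for fxyd9b, -0.0040 to 0.49 for myf5, -0.36 to 0.10 for il-1rl, -0.85 to 0.13 for hba A_05_P249379, -1.12 to 0.45 for fadsd6, -0.012 to 0.93 for tyrp-1, -0.025 to 0.92 for psmb9b A_05_P441057, -1.39 to 0.36 for fxyd8 A_05_P466347, -0.015 to 0.088 for trf A_05_P474597, -0.29 to 0.43 for hba A_05_P491417, -0.80 to 0.44 for A_05_P255954, -1.52 to 0.86 for A_05_P407947 and -1.06 to 0.18 for A_05_P270829. Beside these values the cause was not tested. All turned signs follow the unknown dye correction, and 2 pool pairs limit every statement; no signal over background was used.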

Other observations

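Control spots other than the blank corners also left 0 in liver. With the blank corners counted, 46 control spots were complete on the 4 liver arrays. Of these, 11 had 1 sign once turned, 7 of them positive, against 26.2% of all probes (17.7% positive and 8.51% negative). The turned means of the control spots ran from -1.16 to 1.05 with a median of 0.02. The spot ETG09_205211 had 0.32, -1.11, 0.53 and -2.26, and RC6 had 0.21, -0.60, 0.50 and -1.29.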
